A study of Mus musculus with 8 samples.

Results

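Collagens and other genes of the extracellular matrix, with 5 genes of the contractile and pericyte cells that lie along vessels and trabeculae, were followed in the spleens of mice lacking Nix and of wild-type mice. The members were all probe sets named for a collagen chain (the letters Col, a number, a and a number) or for 1 of 22 further genes, among them Sparc, Bgn, Dcn, Fn1, Eln, the nidogens, perlecan (Hspg2), 5 laminin chains, Pdgfrb, Acta2, Tagln, Myh11 and Des. This gave 123 of 45037 probe sets, from 63 genes of which 42 were collagens. Fbn1 was in the list but named no probe set and was not analysed here.

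The arrays, of the Affymetrix mouse expression type, each received total RNA of 1 spleen, taken at 8 weeks of age, with no pooling. The labels give 4 arrays as Nix null (Nix-/-), called Nix_KO 10, 2, 3 and 6 here after the numbers in their titles, and 4 as wild-type controls, called WT 3, 4, 5 and 6. The labels give no strain, sex or way in which the allele was made, and no treatment was applied. All values are log2 intensities of whole spleen, in which fewer cells of a type and less RNA per cell cannot be told apart.

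The extracellular matrix of the spleen forms its capsule and trabeculae, the reticular fibres laid down by fibroblastic stromal cells, and the basement membranes of arterioles and venous sinuses. Collagen chains assemble in threes: types I, III, V and XXVII form fibrils, type IV forms the sheet of basement membranes, and types VI, XII, XIV and others decorate or link fibrils. Laminins, nidogens and perlecan complete the basement membrane. Small leucine-rich proteoglycans such as biglycan and decorin, and glycoproteins such as Sparc, fibronectin and elastin, bind or organise the fibrils.

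The stretch just before the gene is shown for 3 fibrillar collagens, because the type I and type III genes moved one way and Col5a1 the other. Each run is 200 bases that end 1 base before the gene's first annotated base, from RefSeq on GRCm38.p6, read 5′ to 3′ on the + strand. Capitals mark the letters of 3 searched motifs: the CCAAT box (CCAAT), the GC box (GGGCGG) and the TATA box (TATAAA), on either strand. The windows are chr6:4505418-4505617 for Col1a2, chr1:45311338-45311537 for Col3a1 and chr2:27886181-27886380 for Col5a1.
Col1a2: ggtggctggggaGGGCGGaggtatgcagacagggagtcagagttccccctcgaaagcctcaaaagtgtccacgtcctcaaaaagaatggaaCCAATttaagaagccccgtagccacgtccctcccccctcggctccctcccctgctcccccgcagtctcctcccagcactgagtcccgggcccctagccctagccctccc
Col3a1: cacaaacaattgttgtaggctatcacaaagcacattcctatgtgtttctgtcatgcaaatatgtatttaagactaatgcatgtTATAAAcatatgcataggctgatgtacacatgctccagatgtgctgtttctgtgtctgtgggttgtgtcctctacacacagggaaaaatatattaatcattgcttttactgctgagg
Col5a1: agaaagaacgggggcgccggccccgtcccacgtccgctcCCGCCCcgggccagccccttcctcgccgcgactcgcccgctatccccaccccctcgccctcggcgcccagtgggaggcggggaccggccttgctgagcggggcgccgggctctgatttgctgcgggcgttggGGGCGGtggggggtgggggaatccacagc
The Col1a2 stretch held CCAAT 109 bases and GGGCGG 188 bases before the gene. In Col3a1 the single match was TATAAA at 117 bases, and in Col5a1 the GC box occurred at 161 bases (on the other strand, as CCGCCC) and at 29 bases. The share of G and C was 63.5% for Col1a2, 37.5% for Col3a1 and 77.0% for Col5a1. Promoter windows of 300 bases were at hand for 43 of the 63 member genes (47 windows). Of these, 34.0% held CCAAT, 59.6% GGGCGG and 12.8% TATAAA, beside 37.4%, 35.7% and 13.6% of all 32851 windows. A match is only a description of the letters.

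Some array-wide facts bear on every result. Genes of pancreatic acinar cells, which make digestive enzymes, were high in 3 arrays: the mean over 16 of these genes was 12.40 in Nix_KO 3, 11.49 in WT 3 and 9.49 in WT 5, beside 5.41 to 7.24 in the other 5 arrays. Results are therefore also given without those 3 arrays. The 3 probe sets of the targeted gene, Bnip3l, are annotated to 2 genes (Bnip3l and its pseudogene). They differed between genotypes by 0.43, -0.50 and 0.58 with adjusted p of 0.158, 0.164 and 0.117, so they checked no label, and the labels do not say whether they lie in the deleted part.

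Of the 123 member probe sets, 58 (41 genes, of which 23 were collagens) reached a log2 intensity of 5 in at least 4 arrays and were tested with limma. Among these, 30 were lower and 3 were higher in Nix_KO at an adjusted p under 0.05, while 25 did not pass. Over all 22347 probe sets tested, 17.6% were lower and 12.5% were higher. For the members the shares were 51.7% and 5.17%. The median log2 difference was -0.67 over the tested members and -0.12 over all tested probe sets, and 49 of 58 members had a negative difference. The groups of 4 did not overlap for 26 members with lower and 5 members with higher Nix_KO values, against 19.5% and 15.0% of all probe sets. With 1 probe set per gene, 21 of 41 member genes were lower and 1 was higher, against 24.1% and 14.2% of 11027 genes.

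Centring each array on its median moved the array-wide centre by 0.12, so that all probe sets split into 3073 lower and 3377 higher in place of 3922 and 2789. The members then split into 26 lower and 3 higher. Without Nix_KO 3, WT 3 and WT 5, with 3 arrays against 2, all 30 lower members kept a negative difference, with a median of -0.88 in place of -1.01. In that smaller fit 690 probe sets passed, 190 lower and 500 higher, with 1 member among them (a Col5a1 probe set, higher). No member probe set passed as lower. In the separate fit over genes, 5 member genes passed without those arrays, a count not split by direction here. With the acinar mean as a covariate and all 8 arrays, 28 of the 30 lower members passed.

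**Figure D1:**
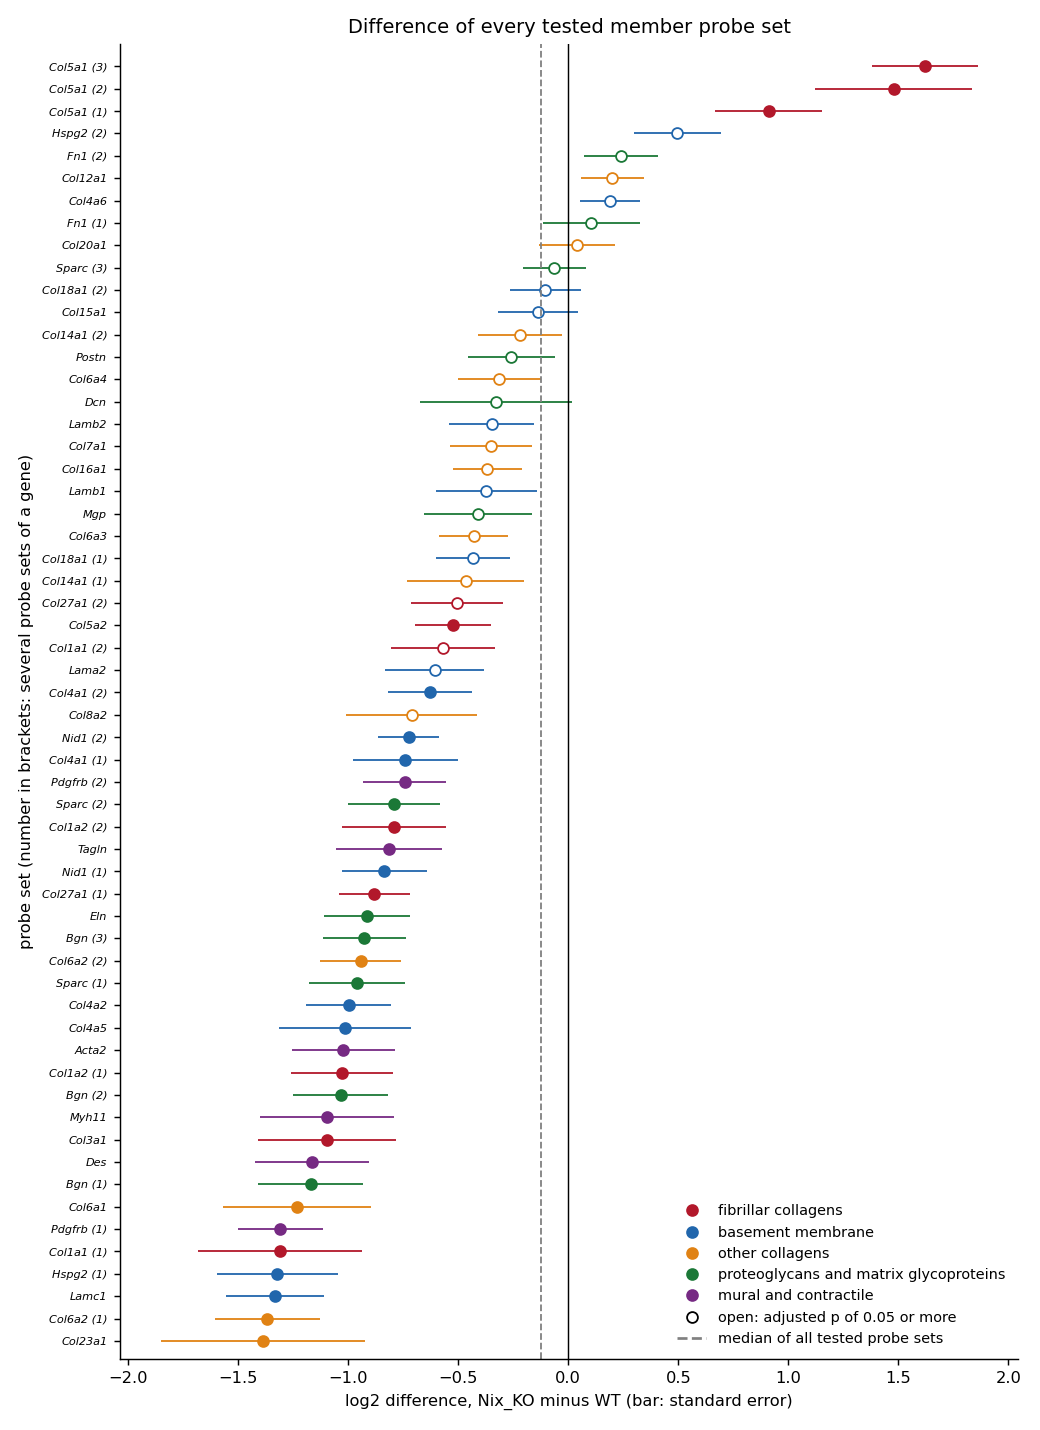
Log2 difference (Nix_KO minus WT, in log2 units) of each of the 58 tested member probe sets, with its standard error as a bar and the 5 roles in colour; filled points passed at an adjusted p under 0.05. The 3 filled points on the right are the Col5a1 probe sets, 30 filled points lie on the left, and the dashed line marks the median of all tested probe sets at -0.12.

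Most of the tested fibrillar collagens fell in Nix_KO, and Col5a1 rose. Col1a1, Col1a2, Col3a1 and Col5a2 were between 1.44 and 2.48 times lower by their strongest probe sets, and Col5a1 was 1.88 to 3.08 times higher by its 3. Of 11 tested probe sets, 6 were lower, 3 were higher and 2 did not pass, with a median of -0.57 (-0.54 without the 3 arrays). Over all tested probe sets 17.6% were lower and 12.5% higher. The genes tested were 6 of 11: Col2a1, Col5a3, Col11a1, Col11a2 and Col24a1 had no probe set past the filter.

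Col1a1 encodes the α1 chain of type I collagen, the main fibril of capsule and trabeculae. Its stronger probe set gave 7.08, 5.37, 6.23 and 6.84 in Nix_KO 10, 2, 3 and 6, and 7.40, 7.20, 8.12 and 8.04 in WT 3, 4, 5 and 6. Every Nix_KO array was below every WT array, with Nix_KO 2 the lowest. The difference was -1.31 ± 0.37 (SE, adjusted p = 0.0267), or 2.48-fold lower. The second Col1a1 probe set differed by -0.57 (adjusted p = 0.0965) and did not pass.

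Col1a2 encodes the partner α2 chain. It read 9.49, 8.60, 8.82 and 9.35 in the Nix_KO arrays and 9.96, 9.78, 10.36 and 10.26 in the WT arrays, in the same order of arrays as above and from here on. The groups did not overlap and the gene was 2.04-fold lower (log2 -1.03 ± 0.23, adjusted p = 0.0109). Its second probe set was 1.73-fold lower (adjusted p = 0.0318). The change of Col1a1 minus that of Col1a2, taken within arrays, was -0.28. This was 1 of 6 such pairs, all chosen after their values were seen and compared between genotypes by a two-sided exact permutation test, whose smallest possible p is 0.0286. After adjustment a pair can pass only if most of the 6 reach that smallest p, so a miss decides nothing. For the type I chains the exact p was 0.229 (0.274 adjusted over the 6 pairs).

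Col3a1 makes type III collagen, which forms the reticular fibres of the spleen. Nix_KO arrays gave 10.16, 8.93, 9.71 and 9.41 and WT arrays 10.59, 9.96, 10.88 and 11.17. Nix_KO 10 lay above WT 4, the lowest WT array, and the other 3 lay below all WT arrays. The mean was 2.14-fold lower (log2 -1.10 ± 0.31, adjusted p = 0.0269).

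Col5a2 and Col5a1 encode 2 chains of the same molecule, type V collagen, which lies inside type I fibrils and starts their growth. Col5a2 read 7.50, 6.97, 7.49 and 7.40 in Nix_KO and 7.87, 7.63, 7.93 and 8.03 in WT, without overlap and 1.44-fold lower (log2 -0.52 ± 0.17, adjusted p = 0.0442). Col5a1 went the other way. Its brightest probe set gave 8.83, 10.04, 8.90 and 9.29 in Nix_KO and 8.52, 7.93, 7.72 and 6.97 in WT, a difference of 1.48 ± 0.36 (2.79-fold higher, adjusted p = 0.0139). The probe set with the smallest adjusted p gave 8.68, 9.01, 9.04 and 9.11 against 7.94, 7.36, 7.31 and 6.75, which is 1.62 ± 0.24 (3.08-fold higher, adjusted p = 0.00307). The weakest of the 3 gave 6.42, 7.04, 6.75 and 6.96 against 6.23, 5.82, 6.21 and 5.26, or 1.88-fold higher (adjusted p = 0.021). In all 3 the Nix_KO arrays lay above the WT arrays. The change of Col5a1 minus that of Col5a2 was 2.00, and 2.47 without the 3 pancreatic arrays. The exact permutation p was 0.0286, the smallest it can be, and 0.0857 adjusted over the 6 pairs. With so few arrays the adjusted value could hardly pass, so no conclusion is drawn from it.

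Among the WT arrays Col5a1 was highest in WT 3 and lowest in WT 6 in all 3 probe sets. The mean of 9 erythroid genes was likewise highest in WT 3 and lowest in WT 6 (12.00, 11.51, 11.22 and 10.11 in WT 3, 4, 5 and 6) and was 12.86, 13.11, 13.31 and 13.18 in Nix_KO 10, 2, 3 and 6. All 9 erythroid genes rose in Nix_KO, with a median difference of 2.05. Their part in the Col5a1 values was not tested. Without the 3 pancreatic arrays the 3 Col5a1 differences were 1.93, 1.26 and 1.88 with adjusted p of 0.064, 0.0643 and 0.0476.

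Col27a1, a fibrillar collagen best known from cartilage, was weak in 1 of its 2 tested probe sets. That probe set gave 4.78, 4.26, 4.77 and 4.56 in Nix_KO, all under the intensity of 5 used in the filter, and 5.47, 5.48, 5.62 and 5.32 in WT (adjusted p = 0.00515). It entered the test only because the 4 WT arrays reached 5. Its call, counted among the lower members, is therefore not independent of the filter. Measured against that floor this probe set was at least 1.39-fold lower in the mean. The brighter probe set gave 7.65, 6.92, 7.45 and 6.87 against 7.62, 7.62, 8.00 and 7.67 and did not pass (log2 -0.51, adjusted p = 0.0926). It stood for Col27a1 in the fit over genes, where the gene did not pass either (limma adjusted p = 0.0717).

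Leaving out single arrays ended some of these calls. Col1a1 missed the threshold without Nix_KO 3, WT 5 or WT 6 (adjusted p = 0.0613, 0.0767 and 0.0763). Col3a1 missed it without Nix_KO 2, Nix_KO 6, WT 5 or WT 6 (0.0605, 0.0531, 0.0739 and 0.0791), and Col5a2 kept its call only without Nix_KO 10, with values of 0.0536 to 0.125 otherwise. The weaker Col1a2 probe set lost it without Nix_KO 2, Nix_KO 3, WT 3, WT 5 or WT 6 (up to 0.0928) and the weakest Col5a1 probe set without WT 4 or WT 6 (0.059 and 0.0506). The brighter probe set of Col1a2, the other 2 of Col5a1 and the weak one of Col27a1 passed in all 8 such fits. For Col27a1 this adds little, since that probe set entered the test only through its WT arrays.

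**Figure D2:**
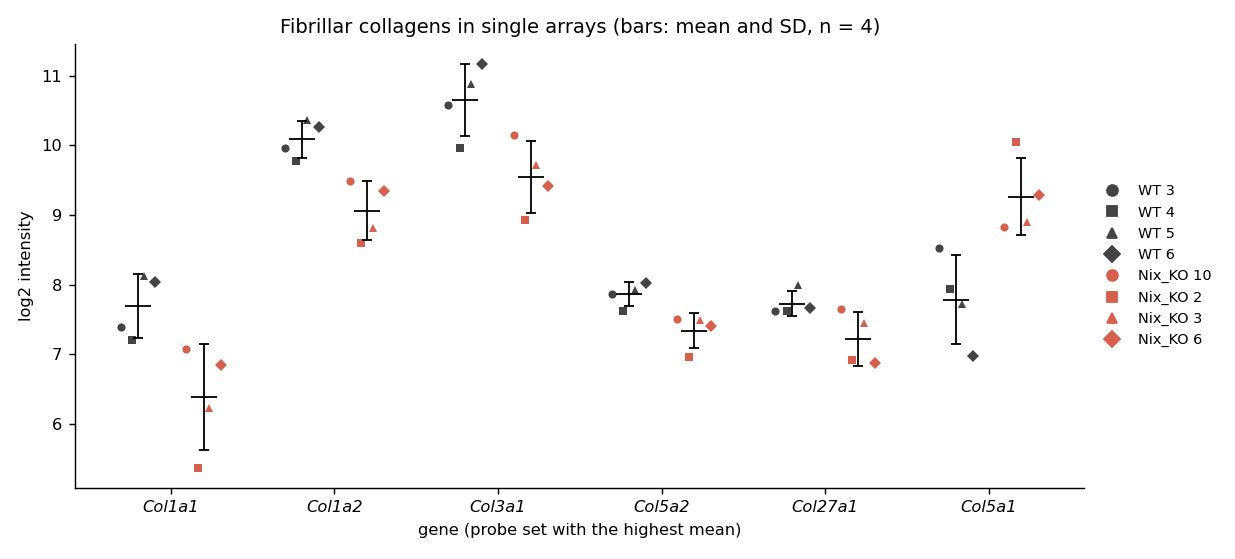
Log2 intensity (y axis) in single arrays for the brightest probe set of 6 fibrillar collagens (x axis), WT in grey and Nix_KO in red, with 1 marker shape per array and bars for mean and SD (n = 4). Nix_KO arrays lie low for Col1a1, Col1a2, Col3a1 and Col5a2 and high for Col5a1, while the Col27a1 groups overlap.

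The basement membrane genes fell or did not pass, and no probe set was called higher. In 2 probe sets that did not pass, of Hspg2 and Col4a6, all Nix_KO arrays lay above the WT arrays. Lamc1, Col4a2, Nid1, Col4a1 and Col4a5 were 1.54 to 2.52 times lower, while Lamb1, Lamb2, Col15a1 and Col18a1 did not pass. Of 16 tested probe sets 8 were lower and 8 did not pass, with a median of -0.62 (-0.40 without the 3 arrays). The share of lower probe sets over the whole table was 17.6%. Col4a3, Col4a4, Lama4 and Nid2 had no probe set past the filter, although Lama4 came near it with 3 arrays at 5 or more.

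Col4a1 and Col4a2 are the 2 chains of the common type IV collagen. Col4a2 read 8.74, 8.62, 8.43 and 9.22 in Nix_KO and 9.93, 9.54, 9.78 and 9.76 in WT. All Nix_KO arrays were lower, with a fold of 2.0 (log2 -1.0 ± 0.19, adjusted p = 0.00597). Col4a1 read 9.02, 8.92, 9.10 and 9.84 against 10.32, 9.59, 10.08 and 9.86. Nix_KO 6 lay above WT 4 here, and the difference of -0.74 ± 0.24 (adjusted p = 0.0424) was 1.67-fold. The second Col4a1 probe set was 1.54-fold lower (adjusted p = 0.0343). The change of Col4a1 minus that of Col4a2 was 0.26 (exact permutation p = 0.143, 0.214 adjusted).

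Col4a5 encodes a chain of a rarer type IV network. It gave 5.47, 4.14, 5.49 and 4.78 in Nix_KO and 5.83, 5.80, 5.96 and 6.34 in WT, so the groups did not overlap, and 2 of the Nix_KO arrays were under 5. The difference was -1.01 ± 0.30 (2.02-fold, adjusted p = 0.0309). Col4a6, whose gene lies head to head with Col4a5, differed by 0.19 (adjusted p = 0.313). It read 5.08 to 5.14 in Nix_KO and 4.71 to 5.03 in WT, without overlap, and 2 WT arrays were under 5.

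Lamc1 encodes the γ1 chain shared by most laminins. It read 5.35, 4.22, 4.81 and 4.84 in Nix_KO against 6.06, 6.22, 6.22 and 6.04 in WT, or 2.52-fold lower (log2 -1.33 ± 0.22, adjusted p = 0.00392). The WT arrays had an SD of 0.10, and 3 Nix_KO arrays were under 5. The other laminin chains were Lamb1, at 4.56, 5.16, 4.99 and 4.59 against 5.41, 4.65, 5.22 and 5.52 (adjusted p = 0.24), and Lamb2, at 6.60, 6.77, 6.15 and 6.93 against 6.73, 7.12, 6.92 and 7.08 (adjusted p = 0.196). Both overlapped between genotypes. Lama2 read 5.14, 5.27, 4.998 and 5.46 against 6.08, 6.20, 5.80 and 5.22, with WT 6 below 2 of the Nix_KO arrays. Its difference of -0.61 did not pass over probe sets (adjusted p = 0.0672) and passed over genes (0.0495).

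Nid1, the linker between laminin and type IV collagen, was even between the WT arrays, with an SD of 0.03. Its brighter probe set gave 8.99, 8.68, 8.99 and 8.72 in Nix_KO and 9.55, 9.61, 9.56 and 9.55 in WT, 1.65-fold lower (log2 -0.73 ± 0.14, adjusted p = 0.00584). The other was 1.78-fold lower (adjusted p = 0.0116). Perlecan, the heparan sulfate proteoglycan encoded by Hspg2, gave 2 answers. One probe set read 5.40, 5.10, 5.02 and 4.09 in Nix_KO and 6.06, 6.04, 6.60 and 6.18 in WT, 2.5-fold lower (adjusted p = 0.00783). The brighter one read 6.90, 7.60, 7.10 and 6.92 against 6.87, 6.55, 6.74 and 6.37, higher in every Nix_KO array by 0.50 in the mean (adjusted p = 0.0846), and did not pass. Hspg2 was the only 1 of 14 genes with several tested probe sets whose probe sets had opposite signs, and no gene had probe sets called in opposite directions. The change of the brighter minus that of the other was 1.82 (exact permutation p = 0.0286, 0.0857 adjusted). No direction is given for Hspg2.

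Col15a1 and Col18a1, collagens of the basement membrane zone, did not pass. Col15a1 read 5.08, 5.42, 5.45 and 4.94 in Nix_KO and 5.69, 5.17, 5.25 and 5.33 in WT (log2 -0.14, adjusted p = 0.588). For Col18a1 the 2 probe sets differed by -0.10 (adjusted p = 0.652) and -0.43 (adjusted p = 0.0762). The first of these, the brighter, read 5.40, 5.37, 5.28 and 5.38 against 5.38, 5.20, 5.84 and 5.42, and the second 5.04, 5.03, 4.93 and 5.49 against 5.66, 5.43, 5.70 and 5.43. Groups overlapped in all of them.

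The Lamc1, Col4a2, Nid1 and lower Hspg2 calls held in all 8 fits that left out 1 array. Col4a5 missed the threshold without Nix_KO 6, WT 4, WT 5 or WT 6 (adjusted p = 0.0624, 0.0595, 0.0689 and 0.0892). The Col4a1 calls were the least firm: the brighter probe set kept its call only without Nix_KO 6 or WT 4 and the other only without Nix_KO 6, with adjusted p up to 0.102. Without the 3 pancreatic arrays the Col4a1 difference was -0.46 in place of -0.74, and Lamc1 stood at -1.33 in both.

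Type VI collagen, which forms beaded filaments around cells, made up most of the lower calls among the remaining collagens. Of 13 tested probe sets 4 were lower, from Col6a1, Col6a2 (2 probe sets) and Col23a1, and 9 did not pass, with a median of -0.43 (-0.35 without the 3 arrays). The genes tested were 11 of 23. By gene 3 of the 11 were lower (27.3%), near the 24.1% of all 11027 genes. Col8a1, Col9a1, Col9a2, Col9a3, Col10a1, Col13a1, Col17a1, Col19a1, Col22a1, Col25a1, Col26a1 and Col6a5 had no probe set past the filter.

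Col6a1 gave 7.48, 5.84, 6.86 and 6.30 in Nix_KO and 7.74, 7.38, 8.11 and 8.16 in WT. Nix_KO 10 lay above WT 4 and the rest of the Nix_KO arrays lay below all WT arrays, at 2.35-fold lower in the mean (log2 -1.23 ± 0.34, adjusted p = 0.0232). Col6a2 gave 6.76, 6.28, 6.32 and 6.03 against 7.43, 7.28, 8.14 and 8.02, without overlap and 2.58-fold lower (log2 -1.37 ± 0.24, adjusted p = 0.00434). The second Col6a2 probe set was 1.92-fold lower (adjusted p = 0.00624). The change of Col6a1 minus that of Col6a2 was 0.14 (exact permutation p = 0.686, also adjusted). Col6a3, another chain of the molecule, differed by -0.43 ± 0.16 (adjusted p = 0.0645): its groups did not overlap but it missed the threshold.

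Col23a1, a membrane-anchored collagen, was dim and varied widely between arrays. It read 5.08, 3.01, 3.85 and 4.91 in Nix_KO and 4.78, 5.79, 6.16 and 5.66 in WT (log2 -1.39 ± 0.46, adjusted p = 0.0477). Nix_KO 10 and 6 lay above WT 3, and 3 Nix_KO arrays and 1 WT array were under 5. Leaving out Nix_KO 2, Nix_KO 3, WT 4, WT 5 or WT 6 ended this call (adjusted p = 0.0923 to 0.125). Col6a1 lost its call without Nix_KO 6, WT 5 or WT 6 (0.0505, 0.066 and 0.0682), while both Col6a2 probe sets passed each time.

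Collagens that sit on the surface of fibrils, with interrupted triple helices, did not pass. Col14a1 read 8.94, 8.87, 9.07 and 9.68 in Nix_KO and 9.37, 9.35, 9.36 and 9.35 in WT (log2 -0.22, adjusted p = 0.404), with Nix_KO 6 above and the others below the WT arrays, which were nearly equal. The second Col14a1 probe set differed by -0.47 (adjusted p = 0.207), Col16a1 by -0.37 (0.101), Col12a1 by 0.20 (0.316) and Col20a1 by 0.04 (0.885). The same held for Col7a1 at -0.35 (0.181), Col6a4 at -0.31 (0.229) and Col8a2 at -0.71 (0.0963).

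Among proteoglycans and glycoproteins of the matrix, Bgn, Sparc and Eln fell and Dcn, Fn1, Mgp and Postn did not pass. Biglycan (Bgn) was 1.9 to 2.25 times lower by its 3 probe sets, Sparc 1.95-fold and elastin (Eln) 1.88-fold. Of 12 tested probe sets 6 were lower, none was higher and 6 did not pass, with a median of -0.60 (-0.68 without the 3 arrays). Over all tested probe sets 17.6% were lower. By gene 3 of 7 were lower (42.9%), beside 24.1% of all 11027 genes. Lumican (Lum) was under the filter, at no more than 3.11 in any array.

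Bgn, a small proteoglycan bound to collagen fibrils, gave 11.07, 10.01, 10.58 and 11.10 in Nix_KO and 11.91, 11.89, 11.80 and 11.85 in WT. The WT arrays had an SD of 0.05 and the Nix_KO arrays 0.51, and no array of one group reached the other (log2 -1.17 ± 0.24, adjusted p = 0.00715). Decorin (Dcn), its close relative, gave 8.25, 7.53, 8.01 and 7.54 against 8.34, 7.77, 7.44 and 9.12. WT 5 was its lowest and WT 6 its highest array, and the difference of -0.33 ± 0.35 did not pass (adjusted p = 0.493). The change of Bgn minus that of Dcn was -0.84, and -0.47 without the 3 arrays (exact permutation p = 0.114, 0.214 adjusted).

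Sparc, a collagen-binding glycoprotein, read 11.72, 11.03, 10.87 and 11.05 in Nix_KO and 12.16, 11.77, 12.43 and 12.17 in WT. The groups did not overlap, and the difference was -0.96 ± 0.22 (adjusted p = 0.0113). A second probe set was 1.73-fold lower (adjusted p = 0.0197) and the remaining weak one differed by -0.06 (adjusted p = 0.76). The second lost its call without WT 3 or WT 6 (0.0501 and 0.052).

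Elastin gives arterial walls and trabeculae their recoil. Eln read 6.59, 5.77, 5.90 and 6.33 in Nix_KO and 7.08, 6.98, 7.19 and 7.00 in WT, with all Nix_KO arrays below (log2 -0.91 ± 0.20, adjusted p = 0.00877). Fibronectin (Fn1) read 8.96, 8.65, 8.49 and 9.11 against 9.01, 8.21, 8.63 and 8.96, and its 2 probe sets differed by 0.10 ± 0.22 and 0.24 ± 0.17 (adjusted p = 0.745 and 0.307). The groups overlapped in both. Mgp, an inhibitor of calcification, read 8.01, 8.02, 8.03 and 7.17 against 7.74, 8.38, 8.24 and 8.52 (log2 -0.41, adjusted p = 0.232). Periostin (Postn) read 6.56, 6.29, 6.29 and 6.07 against 6.42, 6.45, 6.32 and 7.06 (log2 -0.26, adjusted p = 0.341).

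All 5 genes of smooth muscle and pericytes fell, with 6 of 6 tested probe sets lower and no overlap between genotypes in any of them. Over all tested probe sets 17.6% were called lower, and 19.5% had all Nix_KO arrays below the WT arrays. The median difference was -1.06, and -1.0 without the 3 pancreatic arrays. These genes make the contractile apparatus of trabeculae and arterioles or, for Pdgfrb, the receptor through which PDGF recruits pericytes and other stromal cells.

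Pdgfrb was measured by 2 probe sets. The brighter gave 10.41, 9.75, 10.19 and 10.04 in Nix_KO and 10.57, 10.97, 11.09 and 10.73 in WT (1.67-fold lower, adjusted p = 0.0172). The other gave 5.77, 5.92, 5.16 and 5.86 against 7.05, 7.11, 7.00 and 6.80, a wider gap of -1.31 ± 0.19 (2.48-fold, adjusted p = 0.00303), the smallest adjusted p among the members.

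Smooth muscle actin (Acta2) gave 10.98, 10.43, 10.48 and 9.97 in Nix_KO and 11.21, 11.26, 11.71 and 11.78 in WT, 2.03-fold lower (log2 -1.02 ± 0.23, adjusted p = 0.0115). Desmin (Des), the muscle intermediate filament, gave 7.67, 7.47, 6.70 and 7.47 against 8.04, 8.35, 8.97 and 8.62, 2.24-fold lower (log2 -1.16 ± 0.26, adjusted p = 0.0104). Both passed in every fit that left out 1 array. Smooth muscle myosin (Myh11) gave 5.97, 4.53, 5.87 and 5.75 against 6.43, 6.48, 6.70 and 6.90, 2.14-fold lower (adjusted p = 0.0243), with Nix_KO 2 far below the other Nix_KO arrays. Transgelin (Tagln), an actin-binding protein, gave 9.61, 9.36, 8.75 and 8.78 against 9.61, 9.76, 10.11 and 10.26, 1.76-fold lower (adjusted p = 0.0307), where Nix_KO 10 and WT 3 almost met.

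Tagln missed the threshold without Nix_KO 3, Nix_KO 6, WT 4, WT 5 or WT 6 (adjusted p = 0.058 to 0.0912). Myh11 missed it without WT 4, WT 5 or WT 6 (0.0528, 0.0626 and 0.0714), and the brighter Pdgfrb probe set without WT 4 or WT 5 (0.0564 and 0.0505).

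**Figure D3:**
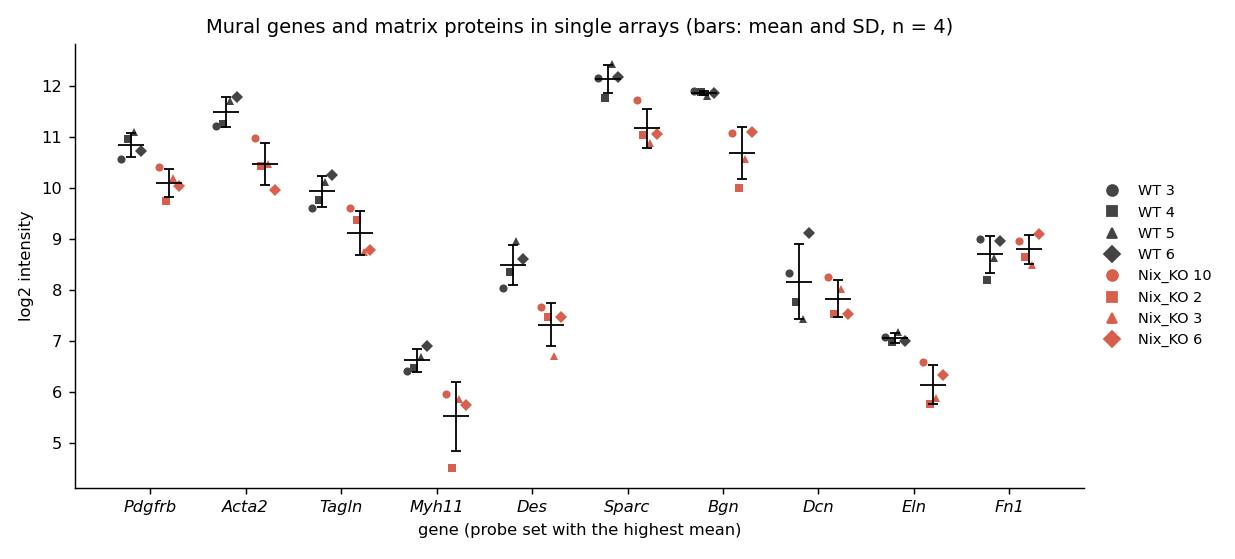
Log2 intensity (y axis) in single arrays for the brightest probe set of 5 mural genes and 5 matrix genes (x axis), WT in grey and Nix_KO in red, with 1 marker shape per array and bars for mean and SD (n = 4). The Nix_KO arrays lie below the WT arrays for Pdgfrb, Acta2, Tagln, Myh11, Des, Sparc, Bgn and Eln, and the groups overlap for Dcn and Fn1.

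The 4 Nix_KO arrays were not alike in the size of the fall. Over the tested members the median deviation from the WT mean was -0.43 in Nix_KO 10, -0.87 in Nix_KO 2, -0.66 in Nix_KO 3 and -0.61 in Nix_KO 6, while the WT arrays lay between -0.13 and 0.10. Among the 30 lower probe sets Nix_KO 2 was the lowest Nix_KO array 19 times and Nix_KO 10 the highest 21 times. In WT, the array WT 4 was the lowest 15 times. The mean rise of the Col5a1 probe sets over the WT mean was smallest in Nix_KO 10 too, at 0.97, and largest in Nix_KO 2, at 1.69.

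**Figure D4:**
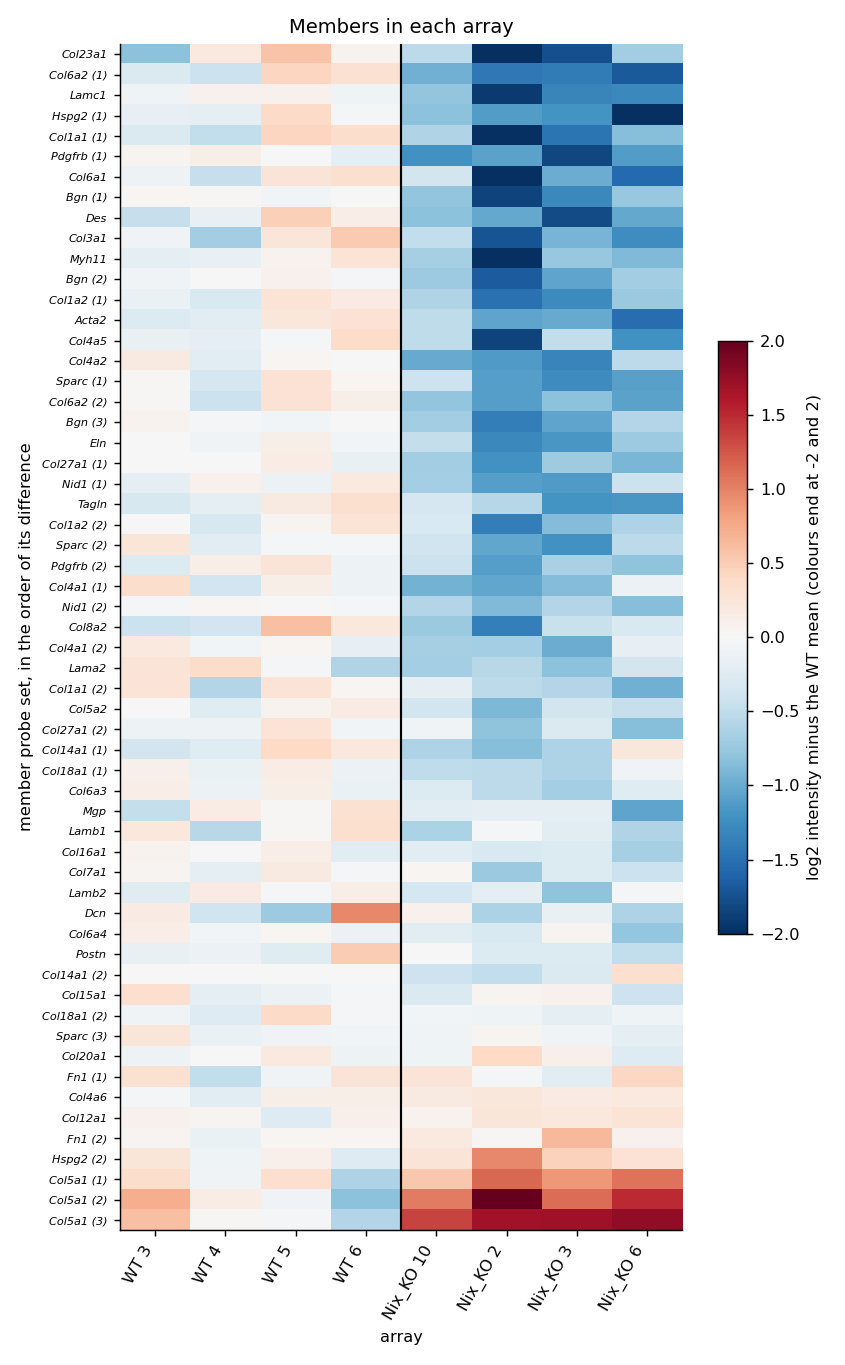
Each tested member probe set (rows, in the order of its difference) in each array (columns, WT left and Nix_KO right of the line), coloured by log2 intensity minus the WT mean. Blue fills most Nix_KO columns and is deepest in Nix_KO 2, and the 3 Col5a1 rows at the foot are red in all Nix_KO columns.

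Genes outside the members that make, cut, hold or regulate the matrix were mostly lower or did not pass as well, with 2 exceptions. The counts below stand beside 24.1% lower and 14.2% higher of all 11027 genes. Of the enzymes and chaperones of collagen synthesis and cross-linking, 10 of 19 tested genes were lower and none was higher (median -0.63). Examples are Serpinh1, the collagen chaperone HSP47, at 2.6-fold lower (adjusted p = 0.00133), the prolyl hydroxylase P3h2 at 1.68-fold (0.00381) and the lysyl oxidase Loxl1 at 2.4-fold (0.00591). Of matrix proteases and their inhibitors, 9 of 15 were lower and none was higher (median -0.87), led by the serine proteases Htra3 at 2.95-fold (0.00118) and Htra1 at 2.93-fold (0.00152), with the metalloprotease inhibitor Timp2 at 2.01-fold (0.00175).

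Among other matrix proteins 14 of 26 were lower and 1 was higher (median -0.72). Prelp, a leucine-rich matrix protein, was 3.4-fold lower (adjusted p = 0.00256), Ltbp4, which holds latent TGF-beta in the matrix, 2.5-fold lower (0.00174) and Tgfbi 1.84-fold lower (0.00287). The exception was the laminin chain Lama5, 1.48-fold higher (0.0381). Among matrix receptors 13 of 20 were lower and 1 was higher (median -0.56). The hyaluronan receptor Cd44 was 2.03-fold lower (0.00162), the integrin chain Itga3 1.84-fold (0.00355) and dystroglycan (Dag1) 1.58-fold (0.00734), whereas the integrin β1 chain Itgb1 was 1.5-fold higher (0.0271). Of genes of TGF-beta and PDGF signalling 10 of 17 were lower and none was higher (median -0.67), among them the ligand Tgfb1 at 2.81-fold (0.00152), the co-receptor Tgfbr3 at 2.07-fold (0.00233) and Tgfb1i1 at 1.9-fold (0.00284). The median over all tested genes was -0.15. These lists were chosen with earlier results of these data known and are a description.

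Markers of the cell types that make matrix were mostly lower or did not pass, with 1 called higher. Of all 11027 genes 24.1% were lower and 14.2% were higher. Of further smooth muscle and pericyte markers 7 of 9 tested genes were lower (median -0.75), including Myl9 at 3.01-fold. The other 2 did not pass, Rgs5 at 0.27 (adjusted p = 0.545) and Tpm1 at 0.02 (0.946). The mean of the list was 7.97 to 8.57 in Nix_KO and 8.89 to 9.06 in WT. Of fibroblastic stroma markers 11 of 16 were lower (median -0.91), including Islr at 2.46-fold and Gsn at 2.38-fold. The other 5 did not pass, with differences from -0.76 for Pdgfra to -0.01 for Dpt. The means of the stroma list were 7.80 to 8.39 in Nix_KO and 8.90 to 9.16 in WT. Of endothelial markers 15 of 19 were lower (median -0.87), with means of 7.49 to 7.95 and 8.23 to 8.48. The endothelial exception was Aqp1, a water channel that red cells carry too, at 3.55-fold higher. It read 12.90, 13.31, 13.28 and 13.61 in Nix_KO and 12.44, 11.79, 11.37 and 10.18 in WT, again with WT 3 the highest and WT 6 the lowest WT array.

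The B cell markers were lower in 8 of 8 genes (median -1.43), at 9.78 to 10.61 in Nix_KO and 11.51 to 11.80 in WT. Of 12 red pulp macrophage markers 2 were lower and 10 did not pass (median -0.38), beside 24.1% lower of all genes. With 12 genes this share cannot be told from that of all genes. Capsule cells (mesothelium) gave 2 lower of 5 tested genes, with means of 5.51 to 6.63 in Nix_KO and 6.10 to 6.90 in WT. None of the 16 tested acinar genes passed, and none of 7 islet genes reached the filter. For adipocytes 1 of 5 tested genes was lower, for skeletal muscle 1 was lower and 1 higher of 2, and for Schwann cells and nerve 1 was lower and 1 higher of 5. Lists of so few genes cannot be told from the 24.1% lower and 14.2% higher of all genes. The part of any of these cell types in the member differences was not tested.

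**Figure D5:**
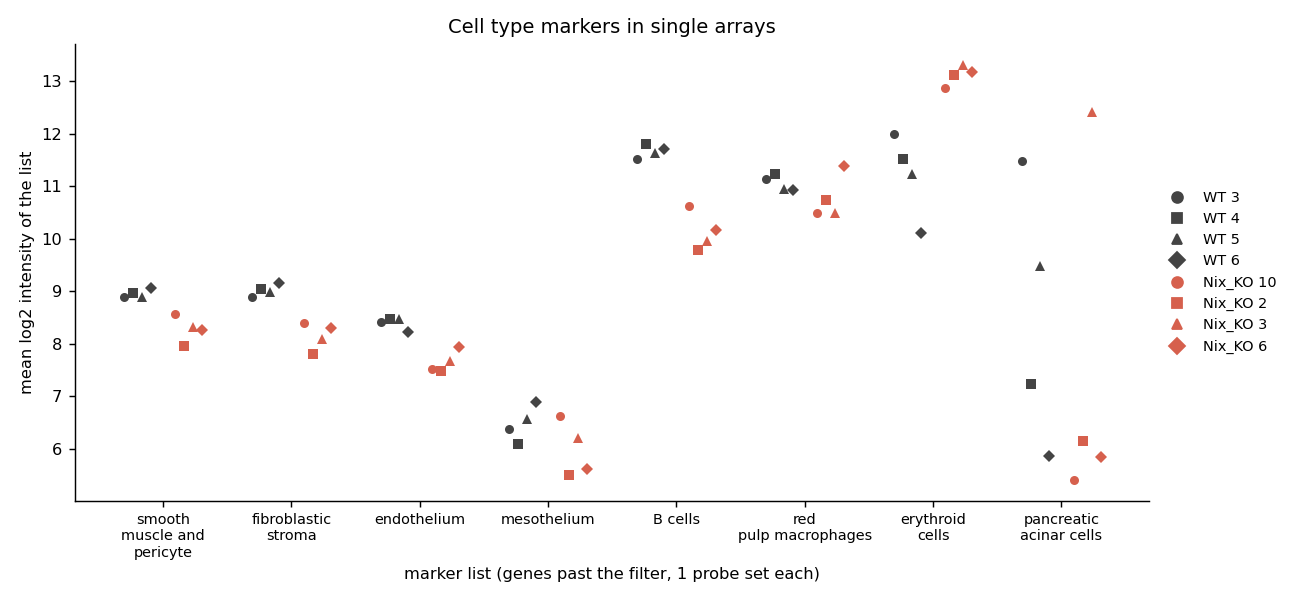
Mean log2 intensity (y axis) over the tested genes of 8 marker lists (x axis) in single arrays, WT in grey and Nix_KO in red, with 1 marker shape per array. Stromal, smooth muscle, endothelial and B cell means are lower and erythroid means higher in all 4 Nix_KO arrays, and the acinar means are high in Nix_KO 3, WT 3 and WT 5.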

How the data were processed

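Each probe set has 1 deposited intensity in every array, which the authors made with GCRMA per the submitters' processing notes. GCRMA corrects background, normalizes between arrays and summarises probes, and it compresses dim values, on which their folds depend. The sources used here name neither its version nor any scaling that followed. These intensity values were deposited on a linear scale (array medians 28.85 to 30.61), and log2 was taken with no offset. Of 45101 probe sets, 64 controls were left out. Symbols came from the platform annotation: 34945 probe sets had 1 symbol, 932 several and 9160 none, and members were taken from those with 1.

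Probe sets at a log2 of at least 5 in at least 4 of 8 arrays (22347) were fitted by genotype in R 4.3.3 with limma 3.58.1, by lmFit and a two-sided eBayes test. Benjamini-Hochberg adjustment ran over the whole table, and the threshold was 0.05. Every adjusted p here is from limma, except those of the within-array pairs. Those come from the exact permutation test and were adjusted over the pairs alone. For genes, the brightest probe set of each single gene was fitted over 11027 genes, and the other matrix and marker lists use this fit. With 4 arrays in each group, their number limits the precision. Per the labels the RNA was not pooled, so arrays stand for separate animals.

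Values in every array are given for the brightest probe set of a fixed set of member genes whether or not they passed, for other called members and for some that did not pass. Further called probe sets of a gene are given by fold and adjusted p only. Up to 3 genes per direction with the smallest adjusted p were named from each other matrix list, and marker genes were named after their values were seen. The members and lists were chosen with earlier results of these data known. Alternatives were other filters, array centring, quantile normalization, an intensity trend, array weights, a replicate block, leaving out each array and leaving out the 3 arrays with pancreatic signal. The acinar mean as a covariate was added after seeing the data.

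The Nix_KO against WT fit was tested on simulated data of 22347 probe sets, 200 of them changed. At a change of 1.5-fold it recovered 4.48% of 67, at 2-fold 40.3% of 67 and at 4-fold 80.3% of 66. False calls made up 5.68%. The simulated noise was independent between probe sets, and in the real fit 6711 probe sets passed. These rates therefore describe the simulated setting and not the recovery in the real data. Promoter sequences came from RefSeq (GRCm38.p6) by gene symbol. The plots used Python 3.11.15 and matplotlib 3.10.9.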

Additional observations from a re-analysis of the deposited data

Results flagged for a closer look

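In each genotype of 4 arrays, the array farthest from the others was compared with Dixon's critical value. Of 116 groups examined (58 member probe sets in each genotype) 5 had such an array, and chance alone gives about 1 in 20. Myh11, which was lower in Nix_KO, had Nix_KO 2 at 4.53 with the other Nix_KO arrays at 5.75 to 5.97. Its difference without that array was -0.76. Mgp had Nix_KO 6 at 7.17 with the others at 8.01 to 8.03. The brighter Col27a1 probe set had WT 5 at 8.00 with the others at 7.62 to 7.67. Col12a1 had WT 5 at 4.84 with the others at 5.15 to 5.20, and the weaker Fn1 probe set had WT 4 at 5.21 with the others at 5.39 to 5.41. Apart from Myh11 none of these passed the threshold.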

How the results depend on the processing

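For the 33 called member probe sets, 557 fits under alternatives gave 408 that kept the call, 149 that kept the direction without the call and 0 that reversed. Left out one at a time, the arrays gave 21 to 32 called members (18 to 29 lower, 2 to 3 higher), with the lowest counts without WT 5 (21, of which 18 lower) and WT 6 (21, of which 19 lower). The same fits gave 15 to 24 called genes, a median member difference of -0.71 to -0.60, and 3996 to 6993 called probe sets in all (2096 to 4221 lower, 1889 to 2772 higher). The lowest totals came without WT 4 (4075, of which 2096 lower), WT 5 (2529 lower) and WT 6 (3996, of which 2107 lower), against 6711. Of the 33 calls, 19 held in all 8 of these fits.

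Without the 3 arrays with pancreatic signal 690 probe sets passed (190 lower, 500 higher), with 1 member probe set (0 lower, 1 higher). The separate fit over genes called 5 member genes in this setting, not split by direction here. With no filter the members' median was -0.022, since 65 dim probe sets entered. The numbers 3 and 6 occur in both genotypes' titles, and the deviations of same-numbered arrays correlated at 0.25 and 0.15. With 2 pairs and no label that says what a number marks, the numbers were not taken to pair the arrays. Taking the number as a replicate block leaves 1 residual degree of freedom. Under this block the genotype difference rests on the 2 same-numbered pairs alone. With it limma called 1 probe set (1 lower, 0 higher) and 0 member probe sets (0 lower, 0 higher). The separate fit over genes, with its own adjustment, called 10 member genes, not split by direction here.

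Reversals touched 5 probe sets, none called. Under the block, Col14a1 stood at 0.016 and Fn1 at -0.18. Col18a1 stood at 0.018 with centred arrays, 0.018 with array weights and 0.072 without the 3 arrays, and Sparc's weak probe set at 0.059 with centred arrays and 0.026 without the 3 arrays. With 1 array left out, Col18a1 ran from -0.19 to 0.021 (without WT 5), Fn1 from -0.061 (without WT 4) to 0.21, this Sparc probe set from -0.11 to 0.017 (without WT 3) and Col20a1 from -0.08 (without Nix_KO 2) to 0.14. The cause of these was not tested.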
